A study of Mus musculus with 22 samples.

Results

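The interferon-induced genes described here are 45 mouse genes that were taken as a list by name, 45 of the 21885 genes to which peaks were assigned. A gene was scored from the peaks that overlapped its body or 10 kb on each side by at least 1 bp, in 18 peak lists of chromatin immunoprecipitation sequencing (ChIP-seq). The lists came from regulatory T cells (Treg cells, the CD4 T cells that restrain immune responses and depend on the transcription factor Foxp3), purified from spleen and lymph nodes and stimulated for 1 h with a commercial cocktail before fixation in 1% formaldehyde. Cells for H3K27ac were fixed for 5 min and cells for the other targets for 30 min. Wild-type (WT) cells were compared with cells whose genotype is given as an IkE5 deletion (IkE5 from here on), and both genotypes were stimulated in the same way. The labels do not expand the name IkE5. Ikzf1, which encodes the zinc finger factor Ikaros, appears in the title of the series as a partner of Foxp3 in repression. The promoter or cell type that drove the deletion, the age and number of the mice and any pooling of animals are not stated in the labels.

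Foxp3, p300 (a histone acetyltransferase that marks active enhancers), NFAT1 (a calcium-activated transcription factor) and histone H3 acetylated at lysine 27 (H3K27ac, a mark of active promoters and enhancers) each had 2 libraries per genotype. Ikaros had 2 libraries in WT only. The peak lists held from 3435 to 53032 peaks. No pair of the 18 lists had more than 0.745% identical intervals, a check for duplicated lists and not a measure of overlap. Nothing in the labels ties libraries to separate animals, so the p-values measure library spread only, part or all of which may be technical. The lists carry no reads, so depth is unknown, and the number of peaks moves with depth and calling threshold as well as with binding. NFAT1 had fewer peaks in IkE5 over the whole genome, 7825 and 6850 in WT against 4908 and 3435. All 6 Treg and T cell markers (Foxp3, Il2ra, Ctla4, Ikzf2, Cd3e and Cd4) were covered by H3K27ac in all 4 libraries.

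Interferons are cytokines released on infection. Type I interferon acts through the receptor chains Ifnar1 and Ifnar2 and the kinases Jak1 and Tyk2, and forms a complex with Stat2 and Irf9 among its subunits that binds the interferon-stimulated response element (ISRE) in promoters. Interferon gamma acts through Ifngr1 and Ifngr2, and promoters that answer to it often hold a gamma-activated site (GAS). The induced genes encode sensors of viral nucleic acid, further regulators, proteins that block viral replication, GTPases that attack vacuoles of pathogens, and parts of the machinery that presents antigen.

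Promoter sequences show where the genotypes differed and where they did not at these genes. Of the 45 members 37 matched the RefSeq promoter table of GRCm38.p6, the assembly of mm10, with 46 start sites. Nlrc5, Usp18, Mx1, Mx2, Dhx58, Zbp1, Parp9 and Parp14 had no entry. A promoter window runs from 250 bases before to 50 bases after the start site, and the 250 bases before it are printed 5′ to 3′ on the strand of the gene. Ifit1 is shown for a Foxp3 peak in the IkE5 libraries alone, Gbp7 for a p300 peak in the IkE5 libraries alone, Isg15 and Irf9 for an NFAT1 peak in the WT libraries alone, and Rsad2 for Foxp3 and Ikaros peaks in every library. Capitals mark matches to GAAANNGAAA on either strand, the core of the ISRE, in the sequences of Ifit1 (chr19:34640639-34640888, plus strand), Gbp7 (chr3:142530086-142530335, plus strand), Isg15 (chr4:156200819-156201068, minus strand) and Rsad2 (chr12:26456453-26456702, minus strand). In Irf9 (chr14:55603735-55603984, plus strand), which had no match to that core, capitals mark TGGGAA on either strand, the core recognised by Ikaros.
Ifit1: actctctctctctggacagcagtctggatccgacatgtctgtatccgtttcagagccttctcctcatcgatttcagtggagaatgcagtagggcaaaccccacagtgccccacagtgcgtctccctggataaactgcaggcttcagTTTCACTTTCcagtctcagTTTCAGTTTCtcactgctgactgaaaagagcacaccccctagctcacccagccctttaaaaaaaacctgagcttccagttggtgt
Gbp7: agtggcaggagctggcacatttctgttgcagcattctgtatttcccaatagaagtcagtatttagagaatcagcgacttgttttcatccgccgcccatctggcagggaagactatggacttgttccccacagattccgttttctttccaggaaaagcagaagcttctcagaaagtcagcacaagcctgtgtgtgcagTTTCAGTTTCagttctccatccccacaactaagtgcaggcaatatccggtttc
Isg15: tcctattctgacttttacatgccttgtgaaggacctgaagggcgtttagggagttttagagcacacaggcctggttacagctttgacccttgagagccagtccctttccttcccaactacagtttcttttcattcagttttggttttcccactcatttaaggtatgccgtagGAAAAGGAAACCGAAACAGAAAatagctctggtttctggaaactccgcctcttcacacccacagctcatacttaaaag
Rsad2: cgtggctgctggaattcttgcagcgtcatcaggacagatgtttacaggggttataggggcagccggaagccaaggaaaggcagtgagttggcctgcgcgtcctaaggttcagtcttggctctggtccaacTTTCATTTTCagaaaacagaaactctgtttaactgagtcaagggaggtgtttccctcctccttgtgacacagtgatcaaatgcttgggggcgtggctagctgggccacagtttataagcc
Irf9: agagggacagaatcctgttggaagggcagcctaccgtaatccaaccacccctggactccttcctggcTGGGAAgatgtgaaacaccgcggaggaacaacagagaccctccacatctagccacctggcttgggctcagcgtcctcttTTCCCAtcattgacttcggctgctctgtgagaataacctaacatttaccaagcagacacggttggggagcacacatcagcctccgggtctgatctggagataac

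The ISRE core was common in the promoters of the list. It was found in 18 of 46 windows (39.1%), against 3.44% of all 32851 windows in the table. Counted in bases from the start site, the matches began at -104 and -85 in Ifit1, at -53 in Gbp7 and at -120 in Rsad2. Isg15 held 3 overlapping matches at -78, -72 and -66. The GAS core, TTCNNNGAA, was found in 12 windows (26.1% against 8.3% of all windows), and TGGGAA in 15 (32.6% against 25.6%). A match is a run of letters and does not show that a factor was bound there.

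Nearly all promoters of the members were acetylated in both genotypes. H3K27ac covered 44 of the 46 windows in both WT libraries (35.2% of all windows) and 45 in both IkE5 libraries (35.7%). The 2 windows outside the WT count were those of Ifi44, which had no peak of any target in any list, and Cxcl10, the gene of a chemokine that recruits T cells, where WT library 2 had no peak. Ikaros was present at 27 windows in both of its libraries, 26 of them among the 44 acetylated windows, where the share over all genes was 56.6%.

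Foxp3 at the promoters differed most between the WT libraries. It was found at 26 and 14 windows in the WT libraries and at 24 and 23 in the IkE5 libraries, so WT library 1 and both IkE5 libraries were alike and WT library 2 stood apart. Both WT libraries had a peak at 9 of the 44 acetylated windows (41.6% over all genes) and both IkE5 libraries at 16 (39.9%). Windows with Foxp3 in both IkE5 but not in both WT libraries belonged to 7 members, Bst2, Gbp5, Gbp7, Ifih1, Ifit1, Ifit2 and Sp100, and a single window of Trim30a showed the reverse. Of these 7 members only Ifit1, which encodes a protein that binds viral RNA lacking a host cap, had no Foxp3 peak at its window in either WT library.

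The p300 count was lowest in WT library 2 as well, which is another sample than WT library 2 of Foxp3. Peaks of p300 were found at 17 and 6 windows in WT and at 15 and 15 in IkE5. Both WT libraries had a peak at 5 of the acetylated windows (15.5% over all genes), and both IkE5 libraries at 8 (12.5%). At Gbp7, which encodes a guanylate-binding protein, p300 was present in both IkE5 libraries and absent from both WT lists, over the ISRE core printed above.

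NFAT1 was found at fewer promoters in IkE5. The WT libraries had 12 and 10 windows with a peak and the IkE5 libraries 5 and 1, so the genotypes did not overlap. Both WT libraries had NFAT1 at 5 of the acetylated windows (8.57% over all genes) and both IkE5 libraries at 1 (2.23%). The windows found in both WT and not in both IkE5 libraries were those of Cmpk2, Irf9, Isg15 and Trim30a. Gbp3 had NFAT1 at its second start site in all 4 libraries, together with Foxp3, p300, H3K27ac and Ikaros. The share over all acetylated windows was lower in IkE5 too.

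**Figure D1:**
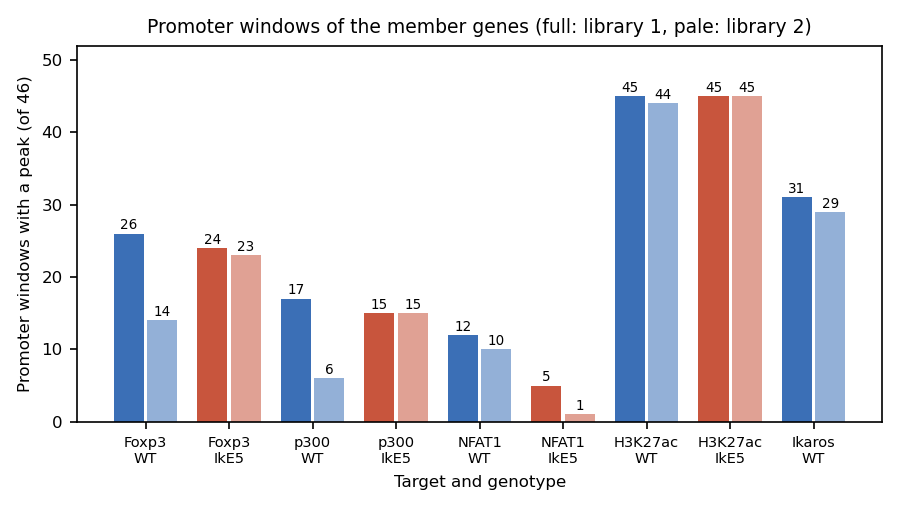
Number of the 46 promoter windows of 37 member genes (y axis) that carried a peak, for each target and genotype (x axis), with library 1 in full colour and library 2 pale, WT in blue and IkE5 in red. The Foxp3 bars of WT stand at 26 and 14 and those of IkE5 at 24 and 23, whereas the NFAT1 bars stand at 12 and 10 in WT and at 5 and 1 in IkE5.

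Over the wider windows of gene body and 10 kb on each side, almost every member lay in active chromatin. H3K27ac was present at 44 members in each of the 4 libraries (60.8% of all genes in both WT and 61.2% in both IkE5 libraries). Ikaros was found at 41 members in each library and at 40 in both (55.2% of all genes). Among the 13312 genes with H3K27ac in both WT libraries the Ikaros share was 88.3%, so the members, at 88.9%, stood near other acetylated genes. Mx1, which encodes an antiviral GTPase and is annotated as a transcribed pseudogene in this assembly, had H3K27ac and no peak of the other targets, and Xaf1, which encodes a pro-apoptotic factor, had no Ikaros peak.

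Foxp3 was found at the same number of members in both genotypes. It was present at 37 and 36 members in WT and at 39 and 36 in IkE5, and at 32 in both libraries of each. Over all genes the shares were 46.2% and 46.4%, and among acetylated genes 75.0% and 74.6%, close to the 71.1% of the members. For p300 the counts were 29 and 25 in WT and 25 and 26 in IkE5, with 23 members in both WT libraries (25.2% of all genes, 41.0% of acetylated genes) and 20 in both IkE5 libraries (22.2% and 36.1%). The ranges of the genotypes overlapped for Foxp3 and for p300.

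NFAT1 peaks were present at 25 and 20 members in WT and at 16 and 9 in IkE5. The libraries of the genotypes did not overlap. In both WT libraries 17 members had a peak (17.3% of all genes, 28.3% of acetylated genes), and in both IkE5 libraries 9 (8.27% and 13.4%). The lower count in IkE5 was thus shared by acetylated genes as a whole. An exact 2-sided permutation test of 2 against 2 libraries cannot go below p = 0.333, so no such count can pass 0.05.

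**Figure D2:**
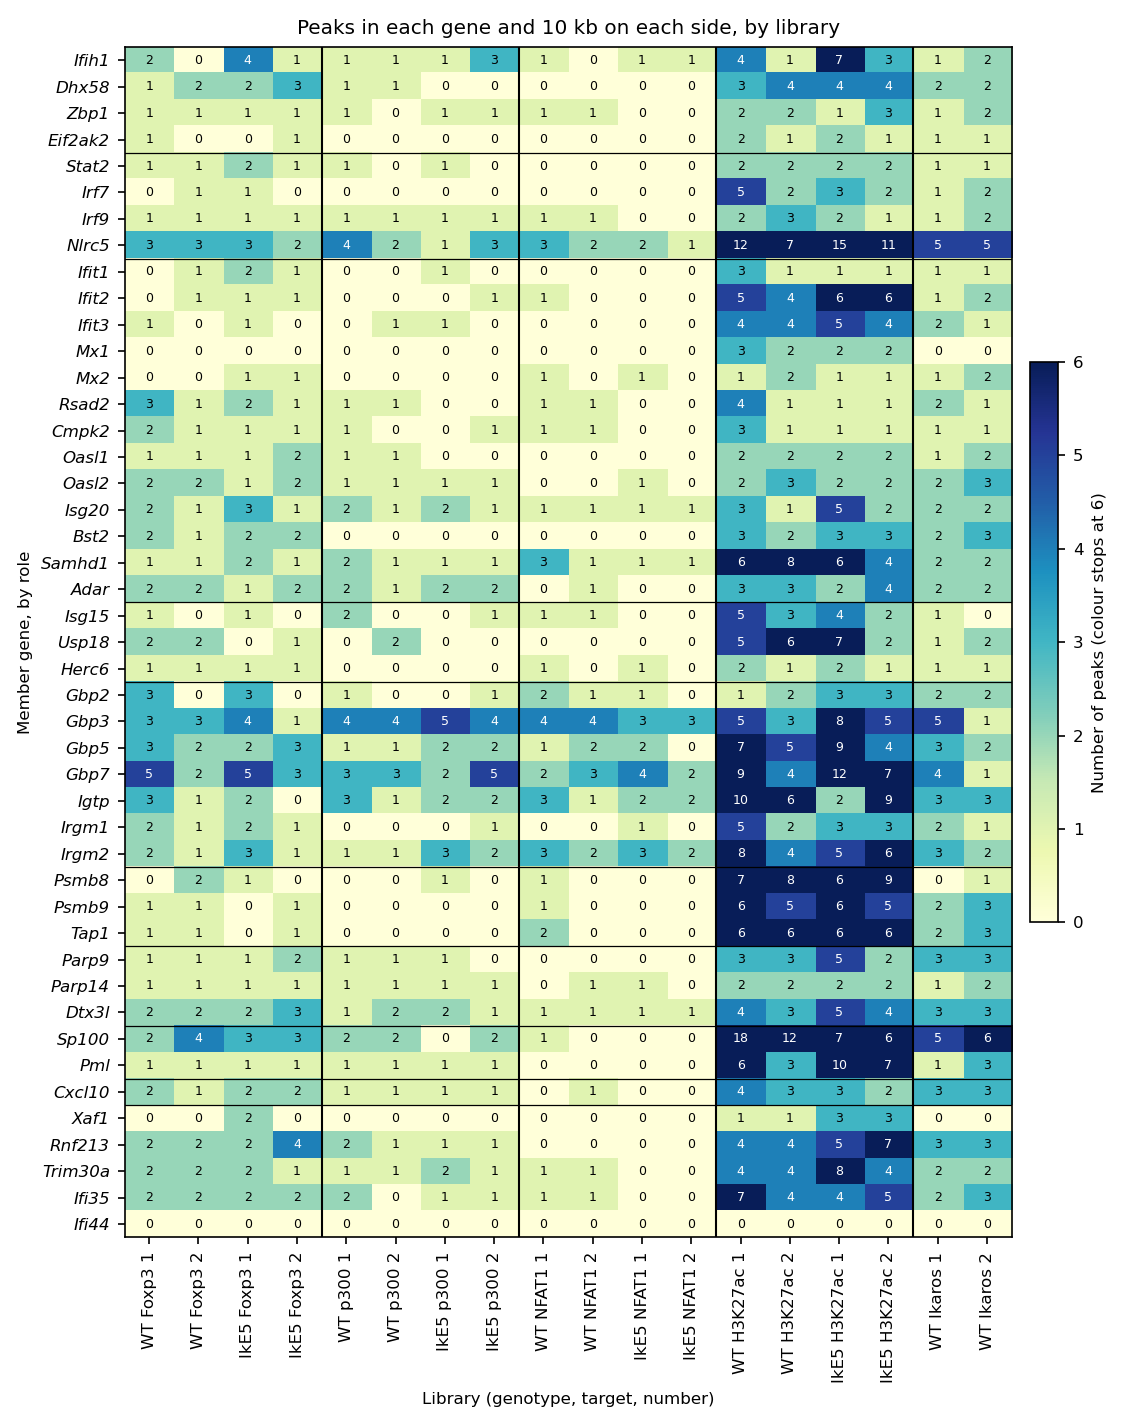
Number of peaks in the wider window of every member gene (rows, grouped by role) in each of the 18 libraries (columns), with the count written in each cell and the colour stopping at 6. H3K27ac filled all rows except Ifi44, and NFAT1 was present at 25 and 20 members in WT against 16 and 9 in IkE5.

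The Ikaros sites of the members lay in acetylated chromatin and in part under Foxp3. Ikaros peaks of both libraries formed 60 distinct regions at the members, of which 59 (98.3%) overlapped H3K27ac of both WT libraries, against 85.1% of all Ikaros regions. Foxp3 of both WT libraries overlapped 29 of them (48.3% against 56.4%), p300 overlapped 19 (31.7% against 33.3%) and NFAT1 overlapped 11 (18.3% against 23.3%). For the 3 factors the share at the members was thus at or under that of all Ikaros sites.

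For each target, overlapping peaks of its 4 libraries were merged into regions. WT only regions had a peak in both WT libraries and in no IkE5 library, and IkE5 only regions had the opposite pattern. Foxp3 had few such regions at the members. Of 43 members with any Foxp3 region 1 had a WT only region (6.31% of all genes with a region) and 3 had an IkE5 only region (7.25%), whereas 20 had a region in all 4 libraries. The IkE5 only regions lay over the start of Ifit1 (chr19:34640457-34641018), 16.6 kb inside Gbp7 (chr3:142546637-142547139) and 4.11 kb beyond the higher-coordinate end of Oasl1 (chr5:114942024-114942553), which encodes a relative of the 2′-5′ oligoadenylate synthetases. Leaving out a library loosens the classes. Without WT replicate 1, WT replicate 2, IkE5 replicate 1 and IkE5 replicate 2 in turn, WT only regions were found at 10, 9, 6 and 8 members (23.1%, 25.4%, 13.4% and 17.4% of all genes with a region) and IkE5 only regions at 9, 8, 5 and 20 (16.1%, 14.8%, 23.7% and 28.7%).

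At Nlrc5, which encodes the transactivator of major histocompatibility complex class I genes, Foxp3 and p300 were missing from the same site in IkE5. The Foxp3 region (chr8:94428051-94428728) lay 5.61 kb outside the gene, on its lower-coordinate side, and was present in both WT and neither IkE5 library. The p300 region there (chr8:94428028-94428600) had the same pattern, and NFAT1 had a peak in WT library 1 alone. Both Ikaros libraries had a peak at this site, and H3K27ac covered it in all 4 libraries. Other Foxp3 regions of Nlrc5, at its lower-coordinate end (chr8:94433971-94434621) and inside the gene (chr8:94454080-94454599), had a peak in all 4 libraries. The gene annotation used here gives no strand or exons for Nlrc5, so sites inside a gene are not assigned to exons or introns.

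**Figure D3:**
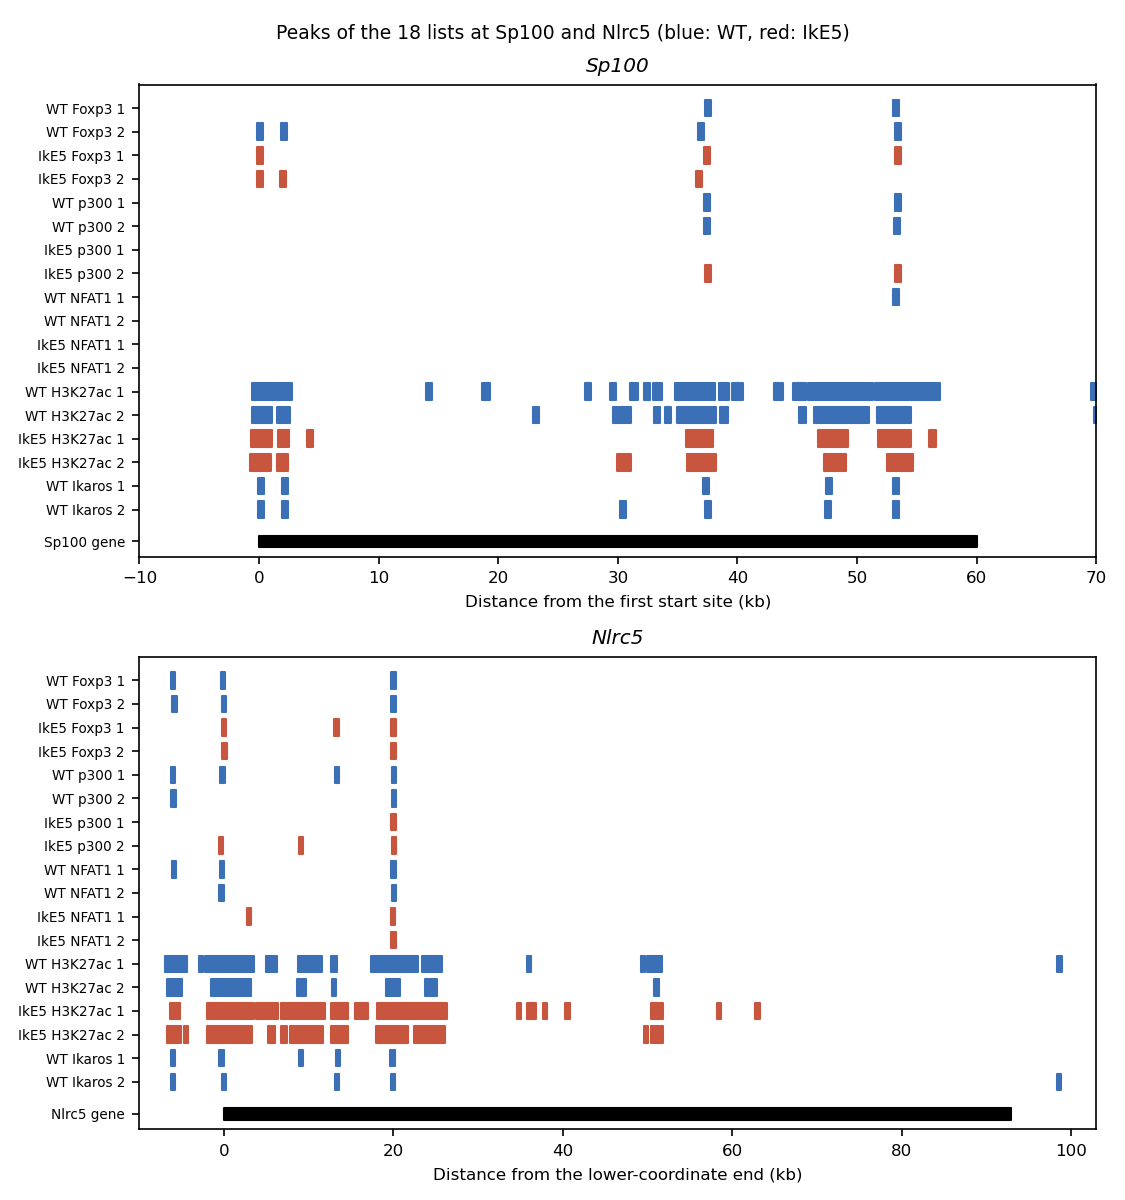
Peaks of the 18 lists (rows, WT in blue and IkE5 in red) at Sp100, by distance in kb from its first start site, and at Nlrc5, by distance in kb from its lower-coordinate end, with the gene drawn as a black bar. At Nlrc5 the Foxp3 and p300 peaks about 6 kb before the gene appear in WT rows only, and at Sp100 the H3K27ac bars inside the gene are fewer and shorter in the IkE5 rows.

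For p300, 6 of 35 members with any region had a WT only region (11.3% of all genes with one) and 4 had an IkE5 only region (8.56%). The 6 included Nlrc5, Dhx58 (a regulator of the RNA sensors), Gbp7 and Rsad2 (the enzyme viperin, which makes a chain-terminating nucleotide). The region of Dhx58 lay 9.34 kb beyond its higher-coordinate end (chr11:100713611-100714144), and its window holds 3 other genes. The others were the neighbours Oasl1 and Oasl2, which share a single region (chr5:114921817-114922340). The IkE5 only regions were at Irgm2, an immunity-related GTPase gene (chr11:58225483-58226085), at the start of Oasl2 (chr5:114897208-114897732) and at the start of Gbp7 (chr3:142530031-142530537), the last of which also falls within 10 kb of Gbp5. Counted as distinct sites, 5 regions were WT only and 3 were IkE5 only. The p300 libraries were left out in the same order. WT only regions were then found at 8, 13, 6 and 7 members (23.6%, 33.1%, 23.5% and 17.0% of all genes with one). IkE5 only regions were found at 8, 4, 9 and 9 (17.5%, 12.2%, 20.5% and 31.3%).

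NFAT1 had WT only regions at 9 of 30 members with any NFAT1 region (30.0%, against 31.1% of all genes with one) and IkE5 only regions at 0 (4.61%). The share of the members was thus near the background. At the start of Isg15, which encodes a ubiquitin-like modifier, the region was chr4:156200673-156201257, and at Irf9, the DNA-binding subunit of the type I interferon complex, it was chr14:55603540-55604389, over the pair of TGGGAA cores printed above. Further WT only sites lay at the start of Cmpk2, a mitochondrial nucleotide kinase gene (chr12:26469041-26469567), and within 0.028 kb of the lower-coordinate end of Nlrc5 (chr8:94433773-94434306). At Trim30a, a tripartite motif gene, the site lay near a start site inside the gene (chr7:104446214-104446749), and at Gbp2 0.78 kb before the start (chr3:142619623-142620144). Another site lay across the higher-coordinate end of Zbp1, the gene of a sensor of Z-form nucleic acid (chr2:173218696-173219229). One more lay 8.62 kb beyond Ifi35, an interferon-induced gene whose window also holds Rnd2, Rpl27 and Vat1 (chr11:101467325-101467844). In Rsad2, 12.1 kb from its start site, p300 (chr12:26444083-26444677) and NFAT1 (chr12:26444079-26444610) were both WT only. With the NFAT1 libraries left out in that order, WT only regions were found at 12, 18, 11 and 10 members (56.5%, 62.1%, 42.9% and 33.8% of all genes with one). IkE5 only regions were found at 2, 0, 1 and 5 (7.54%, 7.53%, 9.3% and 14.3%).

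H3K27ac regions present in IkE5 alone were found at 8 of 44 members (18.2%, against 11.2% of all genes with a region), and WT only regions at 3 (6.82%, against 13.3%). The 8 were Ifih1 (the RNA sensor Mda5), Nlrc5, Ifit2, Gbp5, Psmb8 (a subunit of the immunoproteasome), Pml (the scaffold of nuclear bodies), Xaf1 and Rnf213 (a large ubiquitin ligase), each with 1 region, from 767 bp at Nlrc5 to 1921 bp at Ifih1. The 3 were Irf9, Samhd1 (an enzyme that degrades deoxynucleotides) and Sp100. All 44 members also had an H3K27ac region common to the 4 libraries. Without WT replicate 1, WT replicate 2, IkE5 replicate 1 and IkE5 replicate 2 in turn, IkE5 only regions were found at 15, 9, 13 and 26 members (23.5%, 12.9%, 22.8% and 39.8% of all genes with a region) and WT only regions at 7, 19, 6 and 5 (24.3%, 47.0%, 19.8% and 18.4%). Without WT replicate 2 the WT only class was thus the larger one, at the members as over all genes.

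The length covered by H3K27ac peaks over each wider window gave a graded value, scaled so that each library has the mean total of 67.3 Mb. It was compared with limma on log2(scaled length + 1000 bp) over 12713 genes, with Benjamini-Hochberg adjustment over all of them. A fold on this scale understates the change of genes with short coverage. In such bulk cells, fewer cells with a mark and less of the mark per cell cannot be told apart. Of the 44 members tested, 0 were called higher and 0 lower in IkE5 at an adjusted p of 0.05 (0.739% and 0.385% of all genes tested). At an unadjusted limma p of 0.05, 5 members were higher, namely Ifih1, Nlrc5, Igtp, Pml and Xaf1, and 2 lower, Sp100 and Rsad2 (6.39% and 6.49% of all genes). Both IkE5 libraries exceeded both WT libraries at 14 members (18.4% of all genes) and lay under both at 8 (21.1%). Without scaling these counts were 10 and 6, for which no share over all genes is given here. Overlap of the genotypes is stated below for scaled values unless said otherwise.

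The direction was more often upward than over all genes. A positive difference was found at 31 of 44 members (70.5%), against 46.3% of all genes, and the median log2 difference was 0.14 against -0.02. The count stayed between 25 and 32 with any of the 4 H3K27ac libraries left out. Members share loci, with 16 of them in 7 loci where windows overlap, and 36 distinct loci in all, so they are not independent of each other. Another gene lay in the window of 30 members. The members were chosen with earlier results of these data known, so their share of positive differences is not an independent test of a direction.

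**Figure D4:**
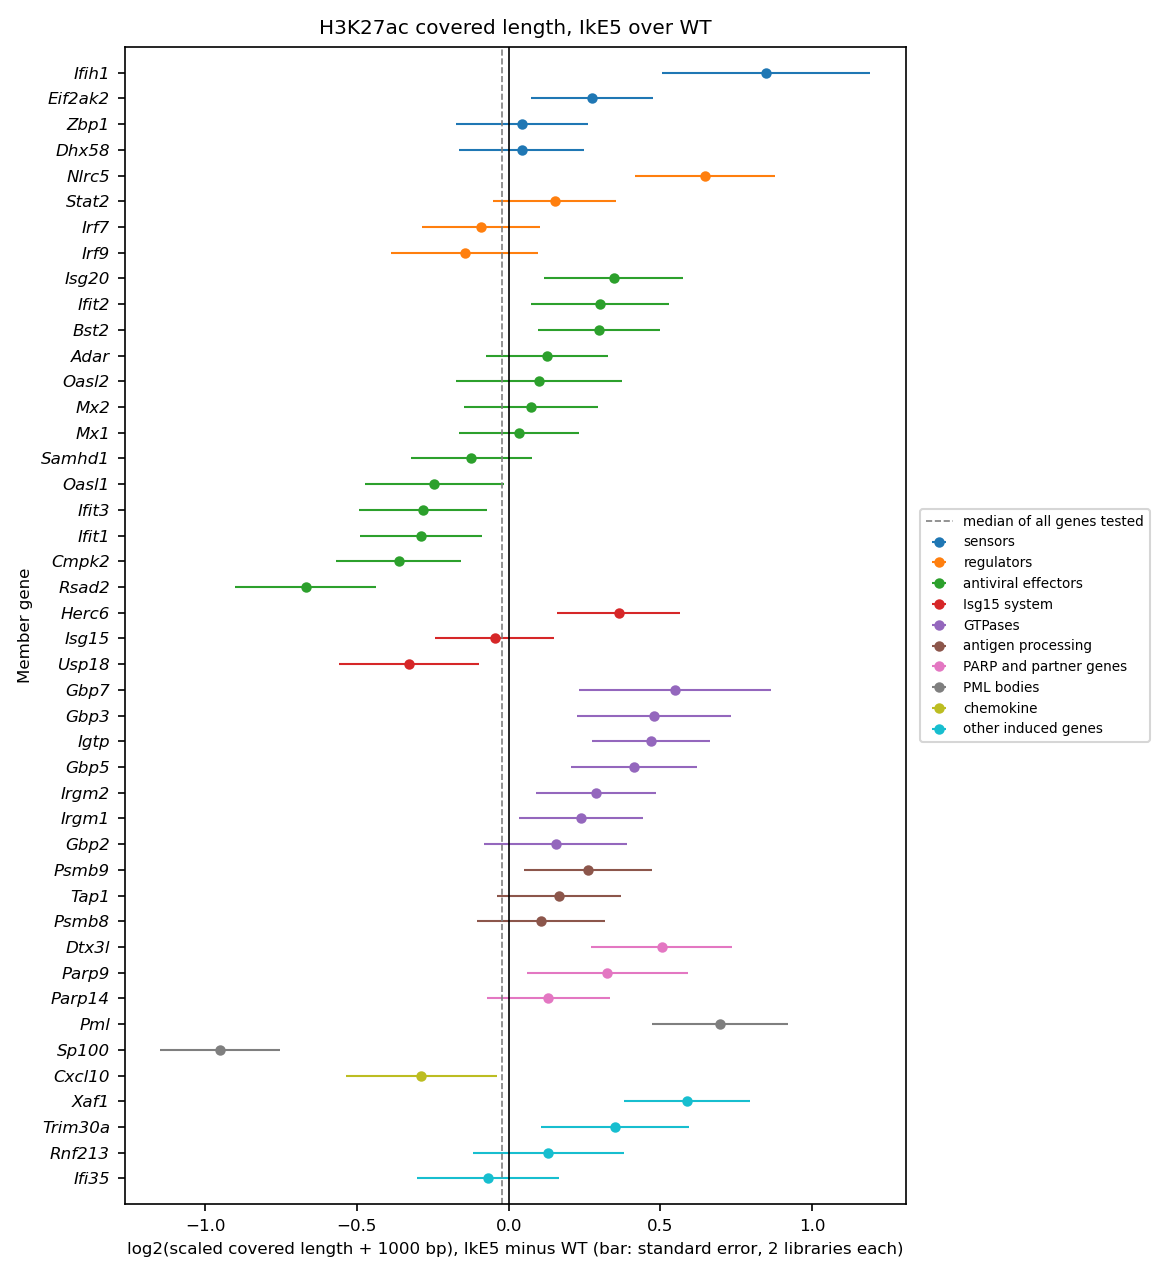
Difference in H3K27ac covered length for 44 member genes, grouped and coloured by role, as log2(scaled length + 1000 bp) of IkE5 minus WT (x axis) with the standard error from limma (2 libraries per genotype). The GTPase genes all lie to the right of 0, and Sp100 at -0.95 and Rsad2 at -0.67 lie farthest to the left.

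The GTPase genes were the largest role in which all members had the same direction. They encode guanylate-binding proteins (Gbp2, Gbp3, Gbp5, Gbp7) and immunity-related GTPases (Igtp, Irgm1, Irgm2), which act on vacuoles that hold pathogens. All 7 had a positive difference, with a median of 0.41, and 5 had both IkE5 libraries above both WT libraries on the scaled values. Before scaling the genotypes overlapped at Gbp3, Gbp5 and Irgm2, as at Gbp7, and did not at Gbp2, Igtp and Irgm1. None of the 7 passed the adjusted test. All 7 stayed positive without scaling and with median-ratio scaling, and 6 of 7 did so without WT replicate 1, with 2 kb on each side or with peaks of at least 1000 bp only. Gbp3, Gbp5 and Gbp7 share a locus, as do Igtp and Irgm2, and the placement of reads that fit several family members is not described in the labels.

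Igtp covered 18 and 17.4 kb in WT and 25.9 and 24.0 kb in IkE5. Both IkE5 values were above both WT values, and the log2 difference was 0.47 (SE 0.194, limma adjusted p = 0.347). Gbp7 covered 14.7 and 7.14 kb in WT and 18.2 and 13.2 kb in IkE5, so the genotypes overlapped, and its log2 difference was 0.55 (SE 0.317, limma adjusted p = 0.568). The difference at Gbp7 was 0.07 without WT replicate 2, 0.33 without IkE5 replicate 1, 1.02 without WT replicate 1 and 0.36 with peaks of at least 1000 bp only. For Gbp3 the values were 11.1 and 7.40 kb in WT and 15.2 and 11.1 kb in IkE5, with a log2 difference of 0.48 (SE 0.254, limma adjusted p = 0.513). It was 0.22 without WT replicate 2, 0.27 without IkE5 replicate 1 and 0.74 without WT replicate 1. Irgm2, with an IkE5 only p300 region, covered 13.7 and 13.9 kb in WT and 17.9 and 16.2 kb in IkE5. Gbp5 covered 9.81 and 8.25 kb against 13.2 and 11.4 kb, and Gbp2 covered 3.54 and 5.31 kb against 4.36 and 5.63 kb. The scaled WT and IkE5 values of Irgm2 and Gbp5 did not overlap, and those of Gbp2 did.

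Sp100, which encodes a component of nuclear bodies, had the largest difference of the list. Its H3K27ac peaks covered 21.6 and 22.1 kb in WT and 10.4 and 11.3 kb in IkE5. On these scaled values the genotypes stood far apart and the libraries of each lay close together. Before scaling Sp100 covered 25.6 and 17.9 kb in WT and 11.2 and 10.4 kb in IkE5. The WT libraries were then farther from each other, and the genotypes still did not overlap. The log2 difference was -0.95 (SE 0.197) and missed the threshold, with a limma adjusted p of 0.0638. The number of H3K27ac peaks was 18 and 12 in WT and 7 and 6 in IkE5. The WT only regions lay 33.3, 38.9 and 45.2 kb from the start site (chr1:85682940-85683636, chr1:85688461-85689281 and chr1:85694656-85695753), whereas the regions at the start (chr1:85649231-85651343 and chr1:85651412-85652764) had a peak in all 4 libraries. Ikaros of both libraries was present at 5 sites of Sp100. The window also holds Sp140.

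Pml, which encodes the scaffold of these nuclear bodies, differed the opposite way. It covered 6.79 and 5.38 kb in WT and 11.9 and 9.13 kb in IkE5, with no overlap of the genotypes (log2 difference 0.70, SE 0.224, limma adjusted p = 0.198). With peaks of at least 1000 bp only, the difference was 0.40. An IkE5 only region lay 7.2 kb inside the gene (chr9:58242192-58242974). Foxp3 and p300 each had 1 peak at Pml in every library.

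Among the sensors Ifih1 covered 3.34 and 2.30 kb in WT and 9.04 and 3.61 kb in IkE5. IkE5 library 1 was far above the others, and the log2 difference of 0.85 (SE 0.343) had a limma adjusted p of 0.337. Without IkE5 replicate 2 it was 1.41, with an adjusted p of 0.000756, without IkE5 replicate 1 it was 0.29, with an adjusted p of 1.0, and these were the lowest and highest adjusted p over all alternatives run. An IkE5 only region lay 2.62 kb before its start site (chr2:62647918-62649838). Dhx58, with a WT only p300 region 9.34 kb beyond it, covered 4.54 and 5.61 kb in WT and 4.93 and 5.56 kb in IkE5. Zbp1 covered 3.19 and 3.88 kb against 3.07 and 4.35 kb. Neither differed beyond the spread of its libraries. Eif2ak2, the gene of the kinase PKR that stops translation, covered 2.08 and 1.74 kb against 2.50 and 2.54 kb. All 4 sensors had a positive difference, with a median of 0.16, but 2 of 4 without WT replicate 1 or without IkE5 replicate 2.

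Among the regulators Nlrc5 stood out. It covered 21.1 and 14.3 kb in WT and 29.1 and 26.5 kb in IkE5, without overlap (log2 difference 0.65, SE 0.231, limma adjusted p = 0.256). Without WT replicate 2 the difference was 0.38, and before scaling the genotypes overlapped, with 24.9 kb in WT library 1 and 24.5 kb in IkE5 library 2. On the scaled values more of the gene was covered in IkE5, while the Foxp3 and p300 peaks before it were found in WT alone. Irf9 covered 5.01 and 8.08 kb in WT and 5.69 and 5.67 kb in IkE5. Stat2, a subunit of the type I complex, covered 1.97 and 2.34 kb in WT and 2.30 and 2.71 kb in IkE5. The genotypes overlapped for Irf9 and Stat2. Irf7, a factor that amplifies type I interferon, covered 4.15 and 4.22 kb in WT and 4.01 and 3.73 kb in IkE5, with a log2 difference of -0.09.

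The antiviral effectors differed in both directions, 7 of 13 with a positive and 6 with a negative difference. Rsad2 covered 1.92 and 1.51 kb in WT and 0.585 and 0.833 kb in IkE5, and its neighbour Cmpk2 covered 1.96 and 2.02 kb in WT and 1.30 and 1.35 kb in IkE5. Neither gene had overlapping genotypes. The log2 difference was -0.67 (SE 0.233, limma adjusted p = 0.243) for Rsad2 and -0.36 (SE 0.206, limma adjusted p = 0.557) for Cmpk2. With a pseudocount of 100 bp the difference at Rsad2 was -1.18. These genes lie side by side in opposite directions and form a single locus here, so they do not count as separate observations. Both had WT only NFAT1 regions, as given above, while Foxp3 at the start of each was found in all 4 libraries.

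Within the Ifit family, whose proteins bind viral RNA, Ifit1 covered 2.72 and 2.36 kb in WT and 1.81 and 1.98 kb in IkE5. Ifit3 covered 3.99 and 5.34 kb in WT and 3.81 and 3.45 kb in IkE5. Ifit2 covered 5.50 and 6.99 kb in WT and 6.83 and 9.09 kb in IkE5. The genotypes did not overlap for Ifit1 and Ifit3, which were lower in IkE5, and overlapped for Ifit2. Before scaling they overlapped for Ifit1, with 1.91 kb in WT library 2 and 1.96 kb in IkE5 library 1, and did not for Ifit2. Ifit1 was thus the gene with an IkE5 only Foxp3 peak at its start and a shorter scaled covered length in IkE5. Its log2 difference of -0.29 (SE 0.200, limma adjusted p = 0.681) did not pass.

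Of the other effectors, Oasl1 covered 2.76 and 4.03 kb in WT and 2.29 and 3.09 kb in IkE5, and Oasl2 covered 1.83 and 3.20 kb against 2.03 and 3.52 kb. Samhd1 covered 16.9 and 19.5 kb against 16.5 and 16.7 kb. Bst2, which encodes tetherin, a protein that holds budding virions at the membrane, covered 3.48 and 3.80 kb against 4.30 and 5.13 kb. The genotypes overlapped for Oasl1 and Oasl2 and did not for Samhd1 and Bst2. Before scaling they overlapped for Samhd1, with 15.9 kb in WT library 2 and 17.9 kb in IkE5 library 1, and did not for Oasl1. The log2 differences of Mx1, Mx2, Isg20 (an exonuclease gene) and Adar (an RNA-editing enzyme gene) lay between 0.03 and 0.35.

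In the Isg15 system, which attaches and removes the modifier, Isg15 covered 6.05 and 5.62 kb in WT and 5.73 and 5.51 kb in IkE5, with overlapping genotypes. Usp18, the protease that removes Isg15 and damps receptor signalling, covered 9.33 and 13.6 kb in WT and 9.08 and 8.49 kb in IkE5. Herc6, a ligase gene, covered 2.94 and 3.12 kb in WT and 4.74 and 3.67 kb in IkE5. Usp18 and Herc6 had no overlap between the genotypes and opposite directions, with log2 differences of -0.33 and 0.36. Before scaling Herc6 overlapped, with 3.48 kb in WT library 1 and 3.38 kb in IkE5 library 2.

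The antigen processing genes Psmb8, Psmb9 and Tap1 form a single locus that encodes immunoproteasome subunits and the peptide transporter. All 3 differences were positive, from 0.11 to 0.26. Psmb8 covered 14.4 and 17.8 kb in WT and 16.2 and 18.6 kb in IkE5, so the genotypes overlapped. Among Parp9, Parp14 and Dtx3l, which encode ADP-ribosyl transferases and their ubiquitin ligase partner, Dtx3l covered 6.28 and 5.92 kb in WT and 11.0 and 7.43 kb in IkE5 (log2 difference 0.50, SE 0.232, limma adjusted p = 0.416). Its genotypes did not overlap on the scaled values. Before scaling they did, with 7.43 kb in WT library 1 and 6.85 kb in IkE5 library 2. The difference was 0.25 without IkE5 replicate 1, 0.76 without IkE5 replicate 2 and 0.27 with 2 kb on each side. Parp9 shares the locus of Dtx3l and had a difference of 0.33, and Parp14 had 0.13.

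Xaf1 covered 2.01 and 2.82 kb in WT and 4.23 and 3.96 kb in IkE5, with no overlap (log2 difference 0.59, SE 0.208, limma adjusted p = 0.251). Its IkE5 only region lay 2.9 kb inside the gene (chr11:72304080-72304986), and the number of H3K27ac peaks was 1 and 1 in WT and 3 and 3 in IkE5. With peaks of at least 1000 bp only, the difference at Xaf1 was 0.12. Rnf213 covered 6.47 and 8.63 kb against 6.73 and 10.2 kb, Trim30a covered 5.78 and 7.19 kb against 10.4 and 6.91 kb, and Ifi35 covered 5.36 and 6.27 kb against 4.45 and 6.72 kb. These 3 genes had overlapping genotypes, as did Cxcl10, with 5.05 and 2.99 kb in WT and 2.62 and 3.48 kb in IkE5.

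**Figure D5:**
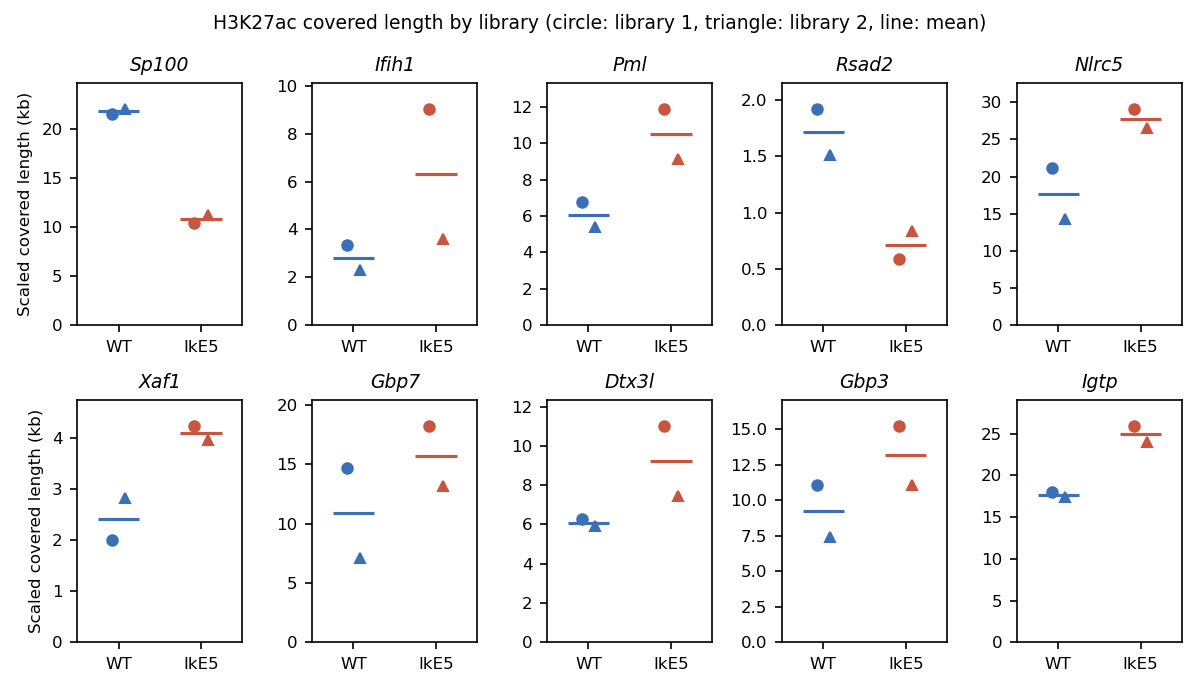
Scaled H3K27ac covered length in kb (y axis, from 0) for the 10 members with the largest absolute log2 difference, in WT (blue) and IkE5 (red), with a circle for library 1, a triangle for library 2 and a line for the mean. The Sp100 points stand at 21.6 and 22.1 kb in WT against 10.4 and 11.3 kb in IkE5, and the Ifih1 points of IkE5 stand apart from each other at 9.04 and 3.61 kb.

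Upstream of these genes, the 26 genes of interferon signalling outside the list showed no common direction. Of 25 tested, 14 had a positive and 11 a negative difference, with a median of 0.03, and 0 passed the adjusted limma test in either direction, while 2 higher and 1 lower passed an unadjusted p of 0.05. Irf1, an interferon-induced transcription factor gene, covered 15.7 and 18.8 kb against 19.3 and 17.2 kb, with overlap. Of the receptor chains, Ifngr2 covered 11.8 and 17.6 kb in WT and 3.58 and 14.4 kb in IkE5, and Ifngr1 covered 12.6 and 21.0 kb in WT and 8.89 and 14.0 kb in IkE5, again with overlap. At Ifngr2 a Foxp3 region (chr16:91545451-91546170) and an NFAT1 region (chr16:91545698-91546328) were WT only. At Ifng, the gene of interferon gamma, H3K27ac covered 3.04 and 0 kb in WT and 6.80 and 4.29 kb in IkE5 (log2 difference 1.68, SE 0.535, limma adjusted p = 0.195), with IkE5 only regions of p300 and H3K27ac. Ifnb1, a type I interferon gene, covered 0.423 and 0.616 kb in WT and was at 0 in IkE5.

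Some markers of other cells differed between the genotypes. The summed scaled coverage of 6 plasmacytoid dendritic cell markers, a cell type that makes much type I interferon, was 13.7 and 19.0 kb in WT and 6.96 and 8.23 kb in IkE5, all of it at Ccr9, Spib and Pacsin1, while Siglech, Klk1 and Cox6a2 were at 0 in all 4 libraries. The 6 B cell markers summed to 17.7 and 24.7 kb in WT and 16.4 and 19.1 kb in IkE5, with Ms4a1 at 0 in all 4 libraries. Myeloid markers summed to 13.8 and 13.4 kb against 10.3 and 12.1 kb, with Lyz2 and Csf1r at 0, and CD8 T and natural killer cell markers to 6.95 and 3.90 kb against 8.46 and 5.01 kb, with Ncr1 at 0. Members of this last list did not share a direction. Cd8a covered 1.23 and 1.60 kb in WT and 0 in both IkE5 libraries. Cd8b1 was lower in IkE5 too, at 1.77 and 1.90 kb against 0.85 and 1.42 kb. Gzmb and Eomes had higher means in IkE5, but their genotypes overlapped. Gzmb covered 2.21 and 0 kb in WT and 4.67 and 1.98 kb in IkE5, and Eomes 1.73 and 0 kb against 2.94 and 1.61 kb. The Treg and T cell markers summed to 217 and 214 kb in WT and 248 and 239 kb in IkE5. Much of this sum lay at Ikzf2, with 125 and 108 kb in WT and 148 and 135 kb in IkE5. The log2 differences of the other markers of this list ran from -0.14 at Cd3e to 0.32 at Cd4. Whether these sums have a part in the differences at the interferon-induced genes was not tested.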

How the data were processed

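ChIP-seq peak lists of 18 libraries (Foxp3, p300, NFAT1 and H3K27ac with 2 libraries per genotype, Ikaros with 2 in WT) were used, and 4 inputs of the 22 samples were not analysed here. The build is mm10, and FastQC, Bowtie2, bedtools, HOMER and MACS2 are named without their roles, per the submitters' processing notes. The settings of the peak calling are not given in the sources used here. The authors deposited chromosome, start and end of each peak, called per library, with no other value such as a score. Peaks of factors were 500 bp wide apart from a few.

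From these, peaks overlapping by 1 bp were joined into regions and assigned to 21883 RefSeq protein-coding genes and 2 member pseudogenes (GRCm38.p6) with 10 kb on each side. H3K27ac covered length was scaled to total covered length and compared with limma 3.58.1 in R 4.3.3 (trended prior, pseudocount of 1000 bp, mean of at least 1000 bp, threshold 0.05, no block). The script was tested on simulated data. Promoter windows and motifs came from the RefSeq promoter table. Python 3.11.15, numpy 2.4.6, pandas 2.3.3 and matplotlib 3.10.9 were used. Alternatives were a pseudocount of 100 bp, no filter, no scaling, median-ratio scaling, 2 kb on each side, peaks of at least 1000 bp, joining at 250 bp, a replicate block and each library left out.

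Values per library are given for members with a WT only or IkE5 only region or among the 10 largest differences, and further members named for their role were added after their values were seen. Of genes outside the list only some of the pathway list and of the markers are named, and some are not reported here. The members and lists were chosen with earlier results of these data known.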

Additional observations from a re-analysis of the deposited data

How the results depend on the processing

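The members' positive median and the number of members with a positive difference kept their direction under every alternative run, with the median between 0.07 and 0.23 and the number between 25 and 32 when a library was left out. Of the 10 largest differences none changed sign where it was tested, and Rsad2 fell below the filter on covered length with 2 kb on each side, with peaks of at least 1000 bp and without WT replicate 1. The number of genes called over the whole table differed by setting. It was 27 higher and 10 lower with a pseudocount of 100 bp, 54 and 24 without the filter, 0 and 0 without scaling, 19 and 3 with median-ratio scaling, 28 and 16 with peaks of at least 1000 bp, and 133 and 81 with 2 kb on each side, against 94 and 49. With 1 library left out it ranged from 87 to 396 higher and from 48 to 307 lower. In such a fit the lone library is assumed to vary like the others.

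By their labels, the libraries share only a number across genotypes. With the number as a replicate block, 639 genes were called higher and 611 lower, and 3 members higher and 1 lower. These were Ifih1 (limma adjusted p = 0.027), Pml (0.0177), Nlrc5 (0.0281) and Sp100 (0.00427), whose adjusted p reached 1.0, 0.823, 0.772 and 0.436 under other alternatives. Over genes, the differences of library 1 and 2 correlated at 0.46 between the genotypes, so libraries of the same number varied together in part. What they share beyond the number is not stated.

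With 1 library left out, 0 to 1 members were called higher, and 18 to 27 members had IkE5 above WT and 9 to 12 under it. The latter count was 4 with 2 kb on each side and 5 with peaks of at least 1000 bp. These counts stand without shares over all genes, and genotypes separate more easily with fewer libraries, so no conclusion is drawn from them. With 1 library left out, WT only regions were found at 6 to 10 members for Foxp3 and 6 to 13 for p300. The ranges were 10 to 18 for NFAT1 and 5 to 19 for H3K27ac. IkE5 only regions were found at 5 to 20, 4 to 9, 0 to 5 and 9 to 26 members, in the same order of targets. A class is easier to meet with fewer libraries. Over all genes the shares likewise ranged from 13.4% to 25.4%, 17.0% to 33.1%, 33.8% to 62.1% and 18.4% to 47.0% for WT only, and from 14.8% to 28.7%, 12.2% to 31.3%, 7.53% to 14.3% and 12.9% to 39.8% for IkE5 only. Joining at 250 bp gave 2 members with a WT only Foxp3 region (6.38% of all genes with a region) and 1 with an IkE5 only NFAT1 region (4.62%). With 2 kb on each side 0 members had a WT only Foxp3 region (5.12%) and 1 a WT only H3K27ac region (11.0%). For p300, 3 had a WT only region (10.0%) and 2 an IkE5 only region (7.98%). At that width 15 members had p300 in both WT libraries and 5 had NFAT1 in both IkE5 libraries, with no share over all genes given here. Depth cannot be judged from lists without reads, so a missing peak may be a weak one.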
